A study of Mus musculus with 6 samples.

Results

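The genes described here are 43 interferon-stimulated effector genes, the antiviral proteins that a cell makes after interferon reaches its receptors. They were taken by symbol from the IFIT, OAS, Mx, GBP, PARP and IFITM families and from other effectors, without sensors, transcription factors or MHC genes. All 43 matched an Ensembl gene identifier among the 55414 identifiers of the count table. RNA was sequenced from C2C12 cells, a wild-type mouse myoblast line grown in serum-containing medium, in 6 libraries. The 3 siUsf2 libraries came from cells transfected with siRNA-USF2, against the transcription factor USF2, and the 3 siControl libraries from cells that received siRNA-NC, a control siRNA. Both groups therefore carry a lipofection and a small double-stranded RNA. No interferon, virus or differentiation medium is named in the labels, and none of the 6 libraries is from untransfected cells. A lower level in siUsf2 therefore cannot be told apart from a raised level in siControl. Here a gene that fell is one lower in siUsf2 than in siControl. All libraries are of 1 line, and the labels do not say whether replicates were separate cultures, so a p-value speaks of these 6 samples, whose spread may be only technical.

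Interferons bind receptors on the cell surface, which activate a complex of transcription factors. The complex, of which IRF9 is a part, binds a short DNA element, the interferon-stimulated response element, in the promoters of effector genes. The effectors then act at different steps of infection: IFIT proteins bind foreign RNA, OAS enzymes activate an RNA-cutting nuclease, Mx and GBP proteins are large GTPases, and IFITM proteins and tetherin act at membranes. Cells without infection keep these genes at a low level that depends on small amounts of interferon.

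The promoter sequences are shown first, since a response element before the start site is what these genes are known for. RefSeq promoter windows of GRCm38.p6, which run from 250 bases before to 50 bases after a start site, were held for 33 members in 39 windows. No window was read for Mx1, Mx2, Oas1b, Oas2, Parp9, Parp14, Usp18, Rtp4, Ifi27 or Ifi27l2a. The element's core, GAAA followed by any 2 bases (NN) and a second GAAA, was searched on both strands. It stood in 17 of the 39 windows and in 16 of the 33 members, against 3.44% of all 32851 windows. It was found in 8 of the 17 members with a window that fell in siUsf2 1 and 2 and in 5 of the 11 that were tested there and did not pass. Of the 5 members with a window that were too low to test, 3 held it. The gamma-activated site TTCNNNGAA stood in 7 of the 39 windows and in 7 of the 33 members, against 8.30% of all windows. It overlapped the response element core in Bst2 and Ifitm3. The E-box CACGTG, the sequence USF factors bind, stood in 1 of the 39 windows, that of Trim25, against 7.15% of all windows. A match is a string of letters and not a measured binding site.

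The 200 bases before the start site are printed 5′ to 3′ for 8 members, with the response element core in capitals (and, in Trim25, the E-box). The first 4 are the Ifit genes, neighbours on chromosome 19 whose values differ below. Isg15 and Bst2 hold several overlapping cores, Ifitm2 holds a core and did not fall, and Trim25 holds the E-box.
Ifit1 (chr19:34640689-34640888, plus strand): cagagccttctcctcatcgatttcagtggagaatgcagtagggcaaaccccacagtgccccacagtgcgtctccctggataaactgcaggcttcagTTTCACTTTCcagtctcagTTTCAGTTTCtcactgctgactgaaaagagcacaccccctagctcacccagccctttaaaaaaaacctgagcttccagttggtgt
Ifit3 (chr19:34583329-34583528, plus strand): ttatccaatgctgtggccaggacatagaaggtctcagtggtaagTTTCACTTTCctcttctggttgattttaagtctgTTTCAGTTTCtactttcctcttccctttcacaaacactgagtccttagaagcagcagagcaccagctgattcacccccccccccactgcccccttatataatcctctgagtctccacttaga
Ifit3b (chr19:34607757-34607956, plus strand): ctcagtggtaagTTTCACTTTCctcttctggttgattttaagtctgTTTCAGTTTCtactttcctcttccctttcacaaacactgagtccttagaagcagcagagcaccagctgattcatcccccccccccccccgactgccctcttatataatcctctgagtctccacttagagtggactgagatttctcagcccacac
Ifit2 (chr19:34550494-34550693, plus strand): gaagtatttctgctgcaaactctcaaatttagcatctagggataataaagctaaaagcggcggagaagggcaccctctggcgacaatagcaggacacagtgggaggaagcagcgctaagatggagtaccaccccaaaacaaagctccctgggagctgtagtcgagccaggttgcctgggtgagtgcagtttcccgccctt
Isg15 (chr4:156200819-156201018, minus strand): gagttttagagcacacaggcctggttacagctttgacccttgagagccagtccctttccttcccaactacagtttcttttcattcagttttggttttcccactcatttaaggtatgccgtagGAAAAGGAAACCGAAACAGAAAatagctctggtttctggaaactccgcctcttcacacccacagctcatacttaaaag
Bst2 (chr8:71537473-71537672, minus strand): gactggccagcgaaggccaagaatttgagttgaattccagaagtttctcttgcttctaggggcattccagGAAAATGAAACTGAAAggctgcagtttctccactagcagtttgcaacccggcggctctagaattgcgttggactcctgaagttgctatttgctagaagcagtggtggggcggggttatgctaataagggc
Ifitm2 (chr7:140955962-140956161, minus strand): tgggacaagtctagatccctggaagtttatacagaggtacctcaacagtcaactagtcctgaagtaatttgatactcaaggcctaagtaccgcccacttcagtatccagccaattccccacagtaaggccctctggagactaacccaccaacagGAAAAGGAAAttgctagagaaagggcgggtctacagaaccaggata
Trim25 (chr11:88999203-88999402, plus strand): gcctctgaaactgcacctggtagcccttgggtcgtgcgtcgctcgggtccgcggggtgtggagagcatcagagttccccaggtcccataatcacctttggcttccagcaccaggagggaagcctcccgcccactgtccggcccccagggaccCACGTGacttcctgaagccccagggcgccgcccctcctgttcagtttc
Ifit1, Ifit3 and Ifit3b each hold 2 cores on the strand opposite to transcription, while the Ifit2 window, the first of 2 held for that gene, has none. In Ifit3 and Ifit3b the cores and the bases between them read alike. The Isg15 cores follow each other at steps of 6 bases.

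**Figure D1:**
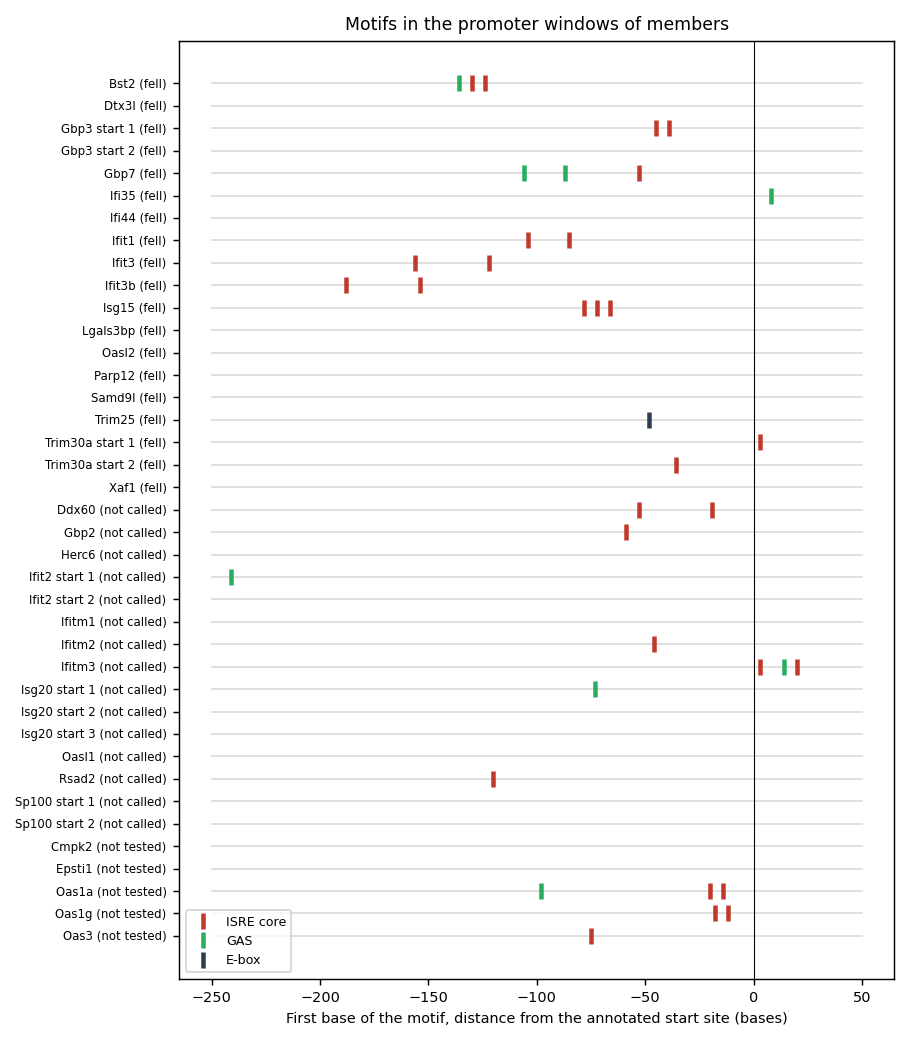
Positions of the response element core (red), the gamma-activated site (green) and the E-box (dark) in the 39 promoter windows of 33 members. The x axis is the distance of the motif's first base from the annotated start site in bases, and each row is 1 window, labelled by whether the gene fell, did not pass or was not tested in the 5-library comparison. Cores stand in members that fell and in members that did not.

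Total counts ranged from 3414565 to 15817183 in the siUsf2 libraries and from 14790997 to 17715250 in the siControl libraries. Usf2 itself had 17.1 CPM in siUsf2 1, 15.3 CPM in siUsf2 2 and 30.8 CPM in the library labelled siUsf2 3, against 26.2, 31.2 and 23 CPM in siControl 1 to 3. The library labelled siUsf2 3 thus held Usf2 within the siControl range, against its label, and it was also the shallowest. Pseudogenes took 0.974% of its counts, against 14.0% to 15.3% in the other 5 libraries. Fits are therefore given without it (the 5-library comparison, siUsf2 1 and 2 against siControl 1 to 3) and with it (all 6 libraries), and its own value is named apart. Sums over related genes were fitted in the 5-library comparison alone. The 5-library comparison gave Usf2 a log2 fold change of -0.74 (SE 0.14, adjusted p = 0.000642 by edgeR) and all 6 libraries gave -0.40 (SE 0.28, adjusted p = 0.702 by edgeR). The library left out was set apart partly by its Usf2 level. The 5-library p-value of Usf2 is therefore no separate support for a knockdown. The paralog Usf1 had 24.8, 28.4 and 68.8 CPM in siUsf2 1 to 3, against 35.6, 32.8 and 26 CPM in siControl 1 to 3, with -0.25 (SE 0.13, adjusted p = 0.234 by edgeR) in the 5-library comparison and, turning in sign, 0.31 (SE 0.41, adjusted p = 0.857 by edgeR) with all 6 libraries. Levels are counts per 1000000 of the library total (CPM). For a count of 0, 3 counts were taken as the limit. They are 0.879 CPM in the library labelled siUsf2 3 and at most 0.203 CPM in the others. Of 8 myoblast markers, 5 fell and 1, Myf5, rose in the 5-library comparison and none passed over all 6 libraries, with Myod1 at 221.5 to 265 CPM in siUsf2 and 253 to 303 CPM in siControl. Of 10 leukocyte markers, Adgre1, Itgam and Tyrobp were among those at 0 in every library, and the list summed to 21.2 to 23.8 CPM in siUsf2 and 20.9 to 26.2 CPM in siControl, mostly Cd14. Of 6 endothelial markers, which summed to 3.08 to 4.69 CPM in siUsf2 and 1.28 to 3.05 CPM in siControl, only Cldn5 was at 0 throughout. Most of the sum was Tek, at 2.64 to 2.88 CPM in siUsf2 and 1.22 to 2.37 CPM in siControl. Tek did not pass in the 5-library comparison (adjusted p = 0.257 by edgeR). Pecam1, Cdh5, Kdr and Emcn had few counts.

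Most of the effector genes fell in siUsf2 1 and 2, and none rose. Of the 43 members, 25 fell, 12 were tested and did not pass, and 6 had too few counts to test (5-library comparison, edgeR, adjusted p below 0.05). Over all 17217 genes tested, 6.4% fell and 4.97% rose. Upper-quartile normalization changed that split to 900 genes lower and 1124 higher, against 1102 lower and 855 higher, and the members' counts stayed at 25 and 0. Of the 25 members, 17 fell at least 2-fold and 9 at least 4-fold. The median log2 fold change was -1.21 over the 37 members tested and -0.01 over all genes tested. A member with few counts passes the filter on low counts more easily when 1 group is high, so the comparison was also made without a filter. There 27 of the 42 members with any count fell and 0 rose, with a median of -1.25, against 4.27% of 29287 genes that fell and a median of -0.01. In bulk RNA, fewer cells that express a gene and less RNA per cell cannot be told apart.

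With all 6 libraries, no member passed the edgeR test at an adjusted p below 0.05, as 0.042% of 16662 genes did. At an unadjusted p below 0.05, 26 of the 36 members tested were lower and 0 higher, against 5.2% of all genes lower. DESeq2 called 19 members lower, against 2.46% of all genes, limma-voom 3, against 0.51%, and limma-voom with sample quality weights 22, against 3.94%. None of these called a member higher, and over all genes they called 296, 19 and 589 higher. The median log2 fold change of the members was -1.18, against -0.01 over all genes. Every siUsf2 library lay below every siControl library for 29 of the 43 members and for 26 of the 36 tested, against 11.2% of all genes tested. The library labelled siUsf2 3 on its own lay below every siControl library for 32 of the 43 members and for 29 of the 36 tested. For all genes tested that share was 42.1%, so its position below siControl was common in this library. Its median log2 difference from the siControl mean was -1.08 over those 36 members and 0.01 over all genes. Depth limits these positions. Oas1b, Oas3 and Cmpk2, all counted as below, had 0 counts in the library labelled siUsf2 3, where 3 counts are 0.879 CPM. The siControl values of Cmpk2, 0.473, 0.437 and 0.847 CPM, were all under that limit. For others, such as Rsad2, Herc6 and Sp100, the 95% Poisson interval of that library reached above the lowest siControl value.

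**Figure D2:**
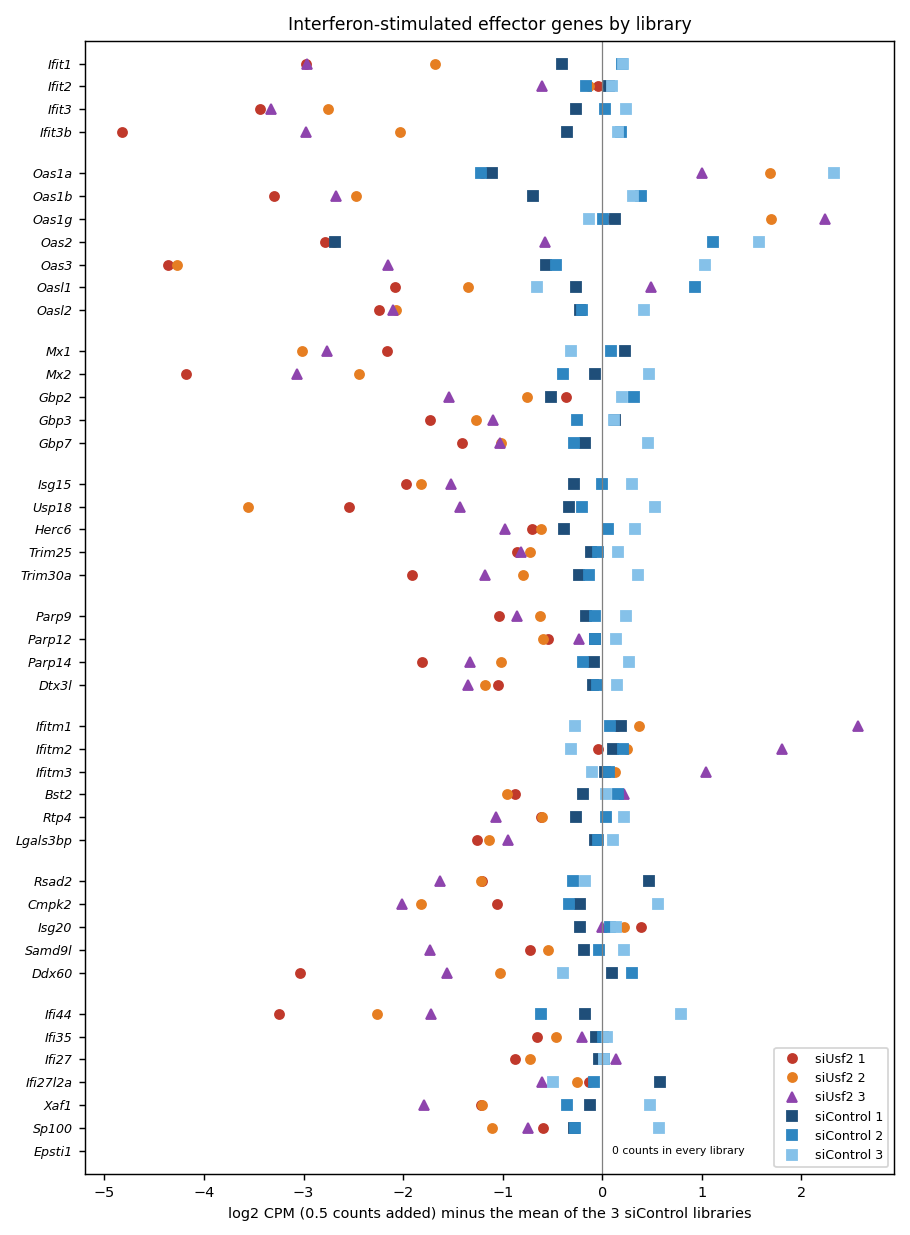
Each of the 43 members in each library, as log2 CPM (0.5 counts added) minus the mean of the 3 siControl libraries, grouped by role. Circles are siUsf2 1 and 2, triangles the library labelled siUsf2 3, and squares siControl; most circles and triangles lie left of the squares, while the 3 Ifitm genes lie at or right of them.

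Among the IFIT genes, which encode RNA-binding proteins that block translation of foreign transcripts, 3 of 4 fell. Ifit3 (ENSMUSG00000074896, chromosome 19, 34583531 to 34588731, plus strand) had 2.28 CPM in siUsf2 1, 3.68 CPM in siUsf2 2 and 2.34 CPM in the library labelled siUsf2 3, against 20.8, 25.6 and 29.5 CPM in siControl 1 to 3. This was a log2 fold change of -3.10 (SE 0.21, adjusted p = 2.26e-11 by edgeR) in the 5-library comparison and -3.19 (SE 0.28, adjusted p = 0.055 by edgeR) over all 6 libraries. The count in the library labelled siUsf2 3 corresponds to 2.34 CPM (95% Poisson interval 1.01 to 4.62), which lies far under the siControl values. Ifit1 (ENSMUSG00000034459, chromosome 19, 34640871 to 34650009, plus strand), whose product recognises the 5′ ends of viral RNA, had 5.06 CPM in siUsf2 1, 12.5 CPM in siUsf2 2 and 4.98 CPM in the library labelled siUsf2 3, against 30.2, 45.7 and 46.1 CPM in siControl 1 to 3. The groups did not overlap, but siUsf2 2 stood well above siUsf2 1, and the 5-library log2 fold change came to -2.24 (SE 0.43, adjusted p = 0.0419 by edgeR). Over all 6 libraries it was -2.44 (SE 0.45, adjusted p = 0.154 by edgeR). The 5-library call ended without siControl 2 (adjusted p = 0.0535) and without siControl 3 (adjusted p = 0.158), and without siUsf2 2 the value was -3.04.

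Ifit3b (ENSMUSG00000062488, chromosome 19, 34607970 to 34613401, plus strand) is a near-copy of Ifit3: their transcripts match over 1663 bases at 97.8% identity, so reads may be split between them. It had 4, 29 and 3 counts in siUsf2 1 to 3, against 93, 147 and 159 counts in siControl 1 to 3, lower in each siUsf2 library, with a 5-library fold change, as log2, of -2.92 (SE 0.48, adjusted p = 0.00157 by edgeR). The value was -2.07 without siUsf2 1 and -5.00 without siUsf2 2, fits in which the variation of the single siUsf2 library is taken from siControl. Summing Ifit3 and Ifit3b removes that split, and the sum was 2.53 CPM in siUsf2 1, 5.62 CPM in siUsf2 2 and 3.22 CPM in the library labelled siUsf2 3, against 27.04, 34.7 and 38.4 CPM in siControl 1 to 3. Its log2 fold change was -3.06 (SE 0.26, adjusted p = 4.77e-06 by edgeR) in the 5-library comparison, -2.57 without siUsf2 1 and -3.75 without siUsf2 2.

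Ifit2 (ENSMUSG00000045932, chromosome 19, 34550694 to 34576419, plus strand), the fourth member of the cluster, did not follow in siUsf2 1 and 2. It had 30.5 CPM in siUsf2 1, 28.5 CPM in siUsf2 2 and 20.5 CPM in the library labelled siUsf2 3, against 32.9, 27.9 and 33.4 CPM in siControl 1 to 3. The siUsf2 1 and 2 values lay among the siControl values, and the 5-library log2 fold change came to -0.10 (SE 0.12, adjusted p = 0.645 by edgeR). The library labelled siUsf2 3 (95% Poisson interval 16.0 to 25.9 CPM) was below every siControl library. The ratio of Ifit3 to Ifit2 counts within a library, which no scaling between libraries can change, was 0.0747 in siUsf2 1, 0.129 in siUsf2 2 and 0.114 in the library labelled siUsf2 3, against 0.632, 0.915 and 0.882 in siControl 1 to 3. The mean log2 ratio differed by -2.95 for Ifit3, -2.29 for Ifit1 and -3.15 for Ifit3b between siUsf2 and siControl. The groups did not overlap for any of the 3 ratios, and a two-sided exact permutation test gave p = 0.1 for each (0.1 after Benjamini-Hochberg adjustment over the 3), the smallest p that 3 libraries against 3 allow. The 3 genes fell and Ifit2 did not in siUsf2 1 and 2, and the ratios come from the same counts. The test is therefore no separate support. The 6-library fit gave log2 fold changes of -2.97 for Ifit3b and -0.27 for Ifit2, with adjusted p of 0.222 to 0.712 by edgeR.

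OAS enzymes respond to double-stranded RNA by making short adenylate chains, and these chains switch on RNase L. Of the 7 members, 2 fell, 1 did not pass and 4 were too low to test. Oasl2 (ENSMUSG00000029561, chromosome 5, 114896936 to 114912234, plus strand), an OAS-like protein, had 4.87 CPM in siUsf2 1, 5.49 CPM in siUsf2 2 and 5.27 CPM in the library labelled siUsf2 3, against 19.9, 20.2 and 31.1 CPM in siControl 1 to 3. The siUsf2 libraries stood close together, all far under siControl, and the 5-library log2 fold change came to -2.21 (SE 0.21, adjusted p = 5.4e-08 by edgeR), and -2.22 (SE 0.24, adjusted p = 0.0694 by edgeR) over all 6 libraries. Oas1b, the flavivirus resistance gene of mice, had 1, 2 and 0 counts in siUsf2 1 to 3, against 8, 19 and 20 counts in siControl 1 to 3. On the log2 scale the fold change was -3.21 (SE 0.87, adjusted p = 0.0146 by edgeR), and it no longer passed when siUsf2 1 (adjusted p = 0.188) or siUsf2 2 (adjusted p = 0.0659) was left out. Oasl1, which in mice restrains translation of Irf7, had 3, 5 and 4 counts in siUsf2 1 to 3, against 11, 28 and 10 counts in siControl 1 to 3. Its fold change, as log2, of -1.94 (SE 0.74, adjusted p = 0.0862 by edgeR) did not pass, although it did without siControl 3 (adjusted p = 0.0236). It did not without siUsf2 1 (adjusted p = 0.415), and the library labelled siUsf2 3 stood among the siControl values. Over all 6 libraries Oasl1 was at -1.38 (SE 0.79, adjusted p = 0.624 by edgeR), and Oas1b was too low to test.

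The other OAS genes were close to silent. Oas3 had 0 counts in every siUsf2 library, against 6, 7 and 23 counts in siControl 1 to 3. Pooled over the libraries of a group, with 3 counts over the siUsf2 group as the floor, siControl lay 8.45-fold above that floor. The counting error and spread of siControl are not part of this limit. That limit was 4.81-fold without siControl 3, which held 23 of its counts, 4.54-fold without siUsf2 1 and 4.76-fold without siUsf2 2. Oas2 had 0 counts in siUsf2, against 0, 7 and 11 in siControl 1 to 3, a limit of 4.23-fold by the same reckoning, and the groups overlapped at 0. Without the filter on low counts Oas2 passed neither in the 5-library comparison nor over all 6 (adjusted p = 0.0796 and 0.754 by edgeR). Oas3 passed in the 5-library comparison (adjusted p = 0.0018 by edgeR) but not over all 6 (adjusted p = 0.313 by edgeR). The Oas2 limit was 2.59-fold without siControl 3, 2.27-fold without siUsf2 1 and 2.38-fold without siUsf2 2. Oas1a had 0, 3 and 0 counts in siUsf2 1 to 3, against 0, 0 and 6 in siControl 1 to 3. Its near-copy Oas1g had 1 count, in siUsf2 2. Oas1a and Oas1g transcripts match at 97.5% identity over 1817 bases.

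The interferon-induced GTPases fell in 4 of 5 members. Mx2 (ENSMUSG00000023341, chromosome 16, 97535308 to 97560900, plus strand), which in mice acts in the cytoplasm, had 0.443 CPM in siUsf2 1, 1.54 CPM in siUsf2 2 and 0.879 CPM in the library labelled siUsf2 3, against 8.11, 6.5 and 11.8 CPM in siControl 1 to 3. Its log2 fold change was -3.18 (SE 0.39, adjusted p = 1.45e-05 by edgeR), -2.52 without siUsf2 1 and -4.33 without siUsf2 2. Mx1, the nuclear influenza restriction factor of mice, had 10, 5 and 1 counts in siUsf2 1 to 3, against 51, 50 and 42 counts in siControl 1 to 3. The change was, in log2 units, -2.60 (SE 0.46, adjusted p = 0.00022 by edgeR) in the 5-library comparison and -2.70 (SE 0.38, adjusted p = 0.0792 by edgeR) over all 6 libraries, with no overlap between groups. Among the guanylate-binding proteins, which attack the compartments of intracellular pathogens, Gbp3 had 2.72, 3.75 and 4.1 CPM in siUsf2 1 to 3, against 9.94, 7.62 and 9.88 CPM in siControl 1 to 3. The 5-library log2 fold change came to -1.51 (SE 0.24, adjusted p = 4.59e-05 by edgeR) for Gbp3 and -1.26 (SE 0.23, adjusted p = 0.000513 by edgeR) for Gbp7, which had 4.36, 5.69 and 5.56 CPM in siUsf2 1 to 3, against 10.3, 9.5 and 16 CPM in siControl 1 to 3. For both genes every siUsf2 library lay below every siControl library. Summed over Mx1 and Mx2 the log2 fold change was -3.02, and over Gbp2, Gbp3 and Gbp7 it was -1.19. Gbp2, at 1.46 to 3.60 CPM in siUsf2 and 3.24 to 5.81 CPM in siControl, overlapped between groups and did not pass, at -0.61 (SE 0.29, adjusted p = 0.176 by edgeR). The 6-library fit gave log2 fold changes of -3.20 for Mx2, -1.43 for Gbp3, -1.23 for Gbp7 and -0.83 for Gbp2, with adjusted p of 0.127 to 0.558 by edgeR.

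ISG15 is a ubiquitin-like protein that is attached to newly made proteins, and Usp18 removes it and also damps the interferon receptor. Isg15 (ENSMUSG00000035692, chromosome 4, 156199424 to 156200818, minus strand) had 2.65 CPM in siUsf2 1, 2.95 CPM in siUsf2 2 and 3.51 CPM in the library labelled siUsf2 3, against 8.59, 10.4 and 12.9 CPM in siControl 1 to 3. The siUsf2 libraries were all under the lowest siControl library, and the 5-library log2 fold change came to -1.94 (SE 0.24, adjusted p = 8.03e-07 by edgeR), and -1.86 (SE 0.24, adjusted p = 0.0719 by edgeR) over all 6 libraries. A pseudogene aligned to Isg15 held 18 counts in siUsf2 1, 19 in siUsf2 2 and 0 in the library labelled siUsf2 3, against 73, 96 and 115 in siControl 1 to 3. With pseudogene counts added to every parent gene, the log2 fold change of Isg15 was -2.06 in the 5-library comparison and -2.09 over all 6 libraries (adjusted p = 0.00676 by edgeR). In that 6-library fit 11 members passed, against 1.06% of all genes, among them Ifit3, Oasl2 and Lgals3bp, to which no pseudogene was aligned. Usp18 had 7, 3 and 3 counts in siUsf2 1 to 3, against 32, 38 and 70 counts in siControl 1 to 3. The fitted log2 fold change came to -3.12 (SE 0.53, adjusted p = 0.000111 by edgeR), and -3.77 without siUsf2 1.

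Trim25, the ubiquitin ligase that activates the RNA sensor RIG-I, stood highest of these genes per length, at 11.4 RPKM in siUsf2 1 and 2 and 19.7 RPKM in siControl (CPM per kilobase of exon, RPKM), and had 62.5, 68.6 and 64.1 CPM in siUsf2 1 to 3, against 104, 110.0 and 126 CPM in siControl 1 to 3. The siUsf2 libraries were close to each other and under siControl, with a 5-library fold change, as log2, of -0.81 (SE 0.10, adjusted p = 8.32e-07 by edgeR) and -0.83 (SE 0.11, adjusted p = 0.071 by edgeR) over all 6. Its means were 65.5 ± 4.28 CPM in siUsf2 1 and 2 (SD, n = 2) and 114 ± 11.2 CPM in siControl (SD, n = 3). Trim30a, a TRIM protein of mice, had 12, 25 and 4 counts in siUsf2 1 to 3, against 37, 43 and 67 counts in siControl 1 to 3. Its fold change, as log2, of -1.32 (SE 0.40, adjusted p = 0.0277 by edgeR) passed, but the call ended without siUsf2 1 (log2 fold change -0.84, adjusted p = 0.36), without siControl 1 (adjusted p = 0.0567), without siControl 2 (adjusted p = 0.0639) and without siControl 3 (adjusted p = 0.0779). Without siUsf2 2 it was -2.0. Herc6, the ligase that attaches ISG15 in mice, was at 1.76 to 2.41 CPM in siUsf2 and 2.84 to 4.68 CPM in siControl and did not pass, at -0.72 (SE 0.31, adjusted p = 0.141 by edgeR). With all 6 libraries the log2 fold changes were -2.82 for Usp18, -1.33 for Trim30a and -0.81 for Herc6, with adjusted p of 0.163 to 0.412 by edgeR.

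**Figure D3:**
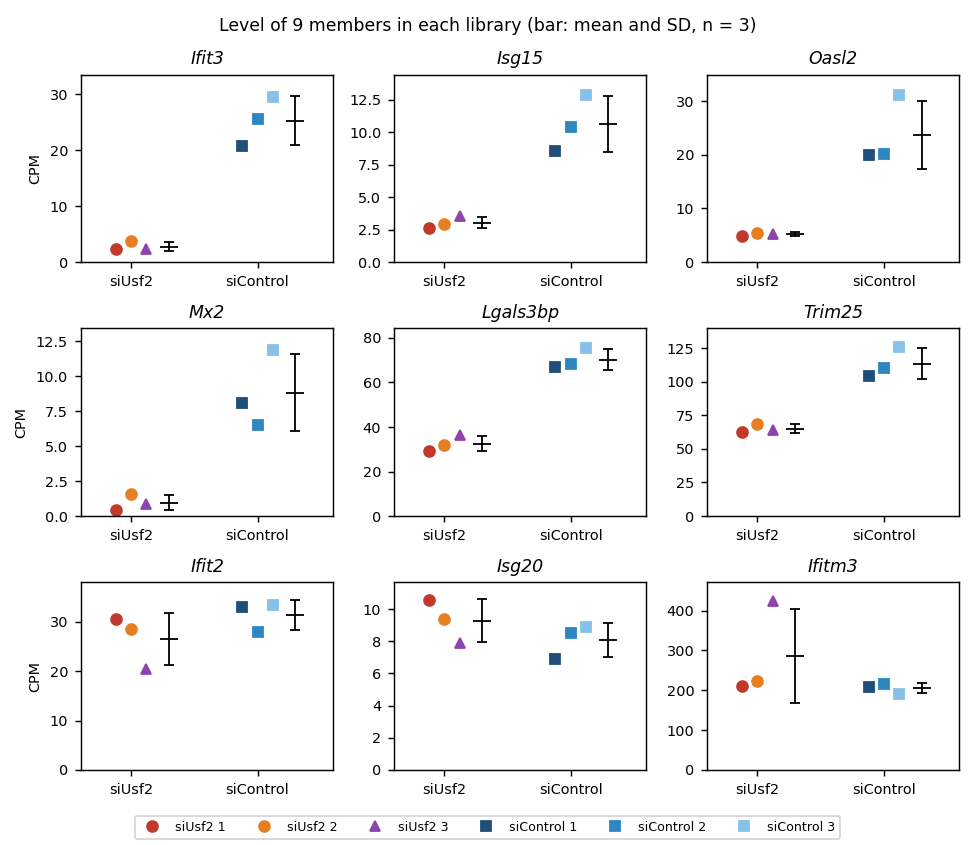
Level in CPM of 9 members in each library, with the mean and SD of each group of 3 (black bars). In Ifit3, Isg15, Oasl2, Mx2, Lgals3bp and Trim25 the siUsf2 libraries lie together below siControl; in Ifit2 and Isg20 the groups overlap, and in Ifitm3 the library labelled siUsf2 3 stands at 423 CPM.

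The PARP genes and Dtx3l were the role group in which every member fell. Dtx3l, a ubiquitin ligase that works as a pair with the ADP-ribosyltransferase Parp9, had 15.7, 14.4 and 12.6 CPM in siUsf2 1 to 3, against 30.4, 31.3 and 36.1 CPM in siControl 1 to 3. The 5-library log2 fold change came to -1.13 (SE 0.13, adjusted p = 3.62e-07 by edgeR) and -1.22 (SE 0.15, adjusted p = 0.0694 by edgeR) over all 6 libraries. Parp9 had 9.42, 12.6 and 10.5 CPM in siUsf2 1 to 3, against 17.3, 18.4 and 22.9 CPM in siControl 1 to 3, with a 5-library fold change, as log2, of -0.84 (SE 0.17, adjusted p = 0.000996 by edgeR) that just missed the threshold without siUsf2 1 (adjusted p = 0.0505). The genes share, on chromosome 16, 458 exonic bases on opposite strands, so where counting ignored strand, reads in that stretch cannot be told apart. Parp14, a large macrodomain ADP-ribosyltransferase, had 9.04, 15.7 and 12.6 CPM in siUsf2 1 to 3, against 30.1, 27.9 and 38.5 CPM in siControl 1 to 3 and a 5-library fold change, as log2, of -1.40 (SE 0.21, adjusted p = 0.000403 by edgeR). Parp12, a zinc-finger member that blocks translation of viral RNA, had 25.6, 24.8 and 31.6 CPM in siUsf2 1 to 3, against 35.7, 35.5 and 41.3 CPM in siControl 1 to 3. It changed least of the 4, at -0.59 (SE 0.12, adjusted p = 0.000962 by edgeR). In all 4 genes the siUsf2 libraries, the one labelled siUsf2 3 included, lay below every siControl library. With all 6 libraries the log2 fold changes were -0.88 for Parp9, -1.40 for Parp14 and -0.50 for Parp12, with adjusted p of 0.15 to 0.25 by edgeR.

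Effectors at membranes and in the secretory path divided into members that fell and the Ifitm genes, which did not. Lgals3bp (ENSMUSG00000033880, chromosome 11, 118392751 to 118402092, minus strand), a secreted glycoprotein that binds galectins, had 29.4 CPM in siUsf2 1, 31.8 CPM in siUsf2 2 and 36.3 CPM in the library labelled siUsf2 3, against 66.8, 68.3 and 75.7 CPM in siControl 1 to 3. The 5-library log2 fold change came to -1.21 (SE 0.11, adjusted p = 9.29e-10 by edgeR) and -1.15 (SE 0.10, adjusted p = 0.055 by edgeR) over all 6 libraries, with means of 30.6 ± 1.71 CPM in siUsf2 1 and 2 (SD, n = 2) and 70.3 ± 4.75 CPM in siControl (SD, n = 3). Rtp4, a chaperone of membrane receptors, had 6.95, 7.03 and 4.98 CPM in siUsf2 1 to 3, against 8.92, 11 and 12.5 CPM in siControl 1 to 3. Its fold change, as log2, of -0.64 (SE 0.20, adjusted p = 0.0305 by edgeR) ended as a call without siUsf2 1 (adjusted p = 0.178), siUsf2 2 (adjusted p = 0.109), siControl 2 (adjusted p = 0.0884) or siControl 3 (adjusted p = 0.0705), and with DESeq2 (adjusted p = 0.0512). Rtp4 also shares 296 exonic bases with Gm45338 on the same strand, so its counts are uncertain. Bst2, tetherin, which holds budding virus at the cell surface, had 11.9 CPM in siUsf2 1, 11.2 CPM in siUsf2 2 and 25.5 CPM in the library labelled siUsf2 3, against 19.2, 24.5 and 22.5 CPM in siControl 1 to 3. It fell in the 5-library comparison, at -0.94 (SE 0.15, adjusted p = 6.23e-05 by edgeR), while the library labelled siUsf2 3 (95% Poisson interval 20.4 to 31.4 CPM) was above every siControl library.

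The Ifitm genes, which block fusion of virus with cell membranes, included the 2 most abundant members per length. Ifitm3 was at 321 RPKM in siUsf2 1 and 2 and 303 RPKM in siControl, and Ifitm2 at 58 RPKM in siUsf2 1 and 2 and 54.5 RPKM in siControl. Ifi27 followed at 30 RPKM in siUsf2 1 and 2 and 52.2 RPKM in siControl, and Ifitm1 was at 27 RPKM in siUsf2 1 and 2 and 22.6 RPKM in siControl. Ifitm3 (ENSMUSG00000025492, chromosome 7, 141009586 to 141010770, minus strand) had 210.4 CPM in siUsf2 1, 224 CPM in siUsf2 2 and 423 CPM in the library labelled siUsf2 3, against 209, 215 and 191 CPM in siControl 1 to 3. Ifitm2 (ENSMUSG00000060591, chromosome 7, 140954837 to 140955987, minus strand) had 34.1 CPM in siUsf2 1, 41.9 CPM in siUsf2 2 and 123 CPM in the library labelled siUsf2 3, against 38, 40.7 and 28.3 CPM in siControl 1 to 3. Ifitm1 (ENSMUSG00000025491, chromosome 7, 140967221 to 140969825, plus strand) had 27.2 CPM in siUsf2 1, 31.7 CPM in siUsf2 2 and 145 CPM in the library labelled siUsf2 3, against 28.1, 25.9 and 20.3 CPM in siControl 1 to 3. In siUsf2 1 and 2 the values overlapped siControl, with log2 values of 0.07 (SE 0.09, adjusted p = 0.667 by edgeR) for Ifitm3, 0.08 (SE 0.14, adjusted p = 0.766 by edgeR) for Ifitm2 and 0.24 (SE 0.14, adjusted p = 0.269 by edgeR) for Ifitm1. The library labelled siUsf2 3 stood above every siControl library for each. In the fit of all 6 the log2 fold changes were 0.43 for Ifitm3, 0.84 for Ifitm2, 1.39 for Ifitm1, -0.51 for Bst2 and -0.78 for Rtp4, with adjusted p of 0.333 to 0.678 by edgeR.

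Pseudogene counts differed in the same library, and their part in the result was not tested. Pseudogenes aligned to Ifitm1 held 1706 counts in siUsf2 1, 1159 in siUsf2 2 and 0 in the library labelled siUsf2 3, against 1102, 1153 and 1321 in siControl 1 to 3. With pseudogene counts added, Ifitm1 was at 135 CPM in siUsf2 1, 109 CPM in siUsf2 2 and 145 CPM in the library labelled siUsf2 3, against 103, 98.0 and 94.9 CPM in siControl 1 to 3. With pseudogene counts added to every parent gene it passed in the 5-library comparison, at a log2 fold change of 0.29 (adjusted p = 0.0327 by edgeR). Ifitm2 with its 5 pseudogenes was at 169 CPM in siUsf2 1, 142 CPM in siUsf2 2 and 123 CPM in the library labelled siUsf2 3, against 143, 154 and 124 CPM in siControl 1 to 3, so there the excess was no longer seen. Ifitm3 with its pseudogene remained higher in the library labelled siUsf2 3, at 423 CPM, against 223 to 256 CPM in siControl. The summed counts of the 3 Ifitm genes gave a log2 fold change of 0.09 (SE 0.09, adjusted p = 0.584 by edgeR) in the 5-library comparison.

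**Figure D4:**
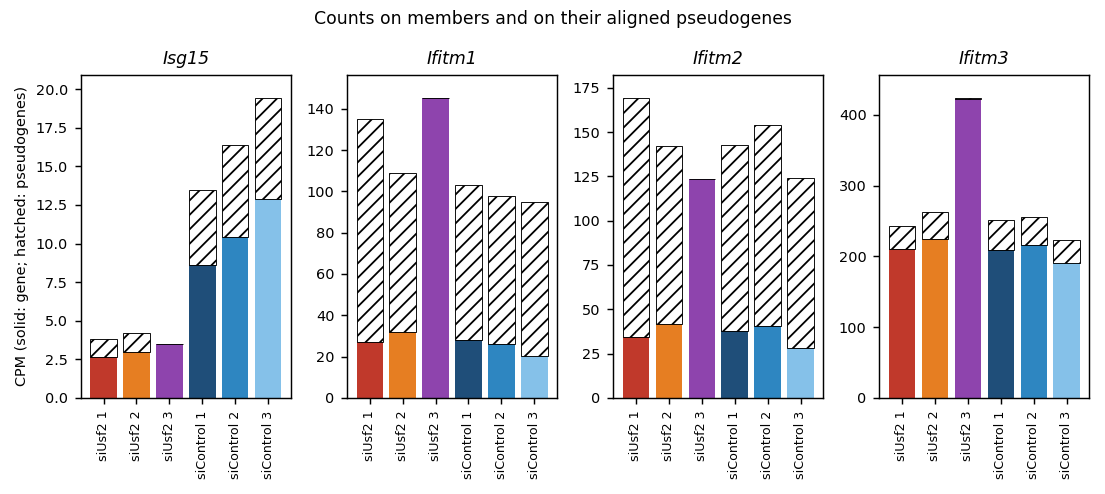
CPM of Isg15 and the 3 Ifitm genes in each library (solid bars) with the CPM of pseudogenes aligned to them (hatched). The library labelled siUsf2 3 has no hatched part. Its Ifitm1 bar (145 CPM) stands above the total of every other library (94.9 to 135 CPM). Its Ifitm2 bar (123 CPM) stands just under the other totals (124 to 169 CPM).

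Of the effectors that act on nucleotides and nucleic acids, 1 of 5 fell. Samd9l, a large protein that restrains translation and cell growth, had 17.3, 19.6 and 8.49 CPM in siUsf2 1 to 3, against 25.2, 28.1 and 33.2 CPM in siControl 1 to 3. Its log2 fold change was -0.66 (SE 0.14, adjusted p = 0.00149 by edgeR). Rsad2 (viperin), a radical SAM enzyme that makes a chain-terminating nucleotide, had 15, 14 and 2 counts in siUsf2 1 to 3, against 46, 29 and 35 counts in siControl 1 to 3. The groups did not overlap, and the log2 value of -1.28 (SE 0.44, adjusted p = 0.0556 by edgeR) missed the threshold, although it passed without siControl 3 (adjusted p = 0.0358) and without the filter on low counts (adjusted p = 0.0494). With another library left out it did not pass, with adjusted p of 0.0746 to 0.248. Ddx60, a helicase, had 2, 9 and 1 counts in siUsf2 1 to 3, against 20, 25 and 17 counts in siControl 1 to 3 and likewise missed it, at -1.83 (SE 0.65, adjusted p = 0.0653 by edgeR), and the value depended on the siUsf2 library kept. It was -1.08 without siUsf2 1 (adjusted p = 0.519) and -3.29 without siUsf2 2 (adjusted p = 0.0381), and it also passed without siControl 3 (adjusted p = 0.0281). Cmpk2, the nucleotide kinase gene beside Rsad2 on chromosome 12, was too low to test, with 4, 2 and 0 counts in siUsf2 1 to 3, against 7, 7 and 15 counts in siControl 1 to 3. Isg20, an RNA exonuclease, went against most members, with 10.6 CPM in siUsf2 1, 9.38 CPM in siUsf2 2 and 7.91 CPM in the library labelled siUsf2 3, against 6.9, 8.5 and 8.86 CPM in siControl 1 to 3. On the log2 scale the fold change was 0.29 (SE 0.19, adjusted p = 0.372 by edgeR), which did not pass, and the groups overlapped through the library labelled siUsf2 3. The 6-library fit gave log2 fold changes of -0.94 for Samd9l, -1.39 for Rsad2, -1.86 for Ddx60 and 0.18 for Isg20, with adjusted p of 0.254 to 0.842 by edgeR.

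Among the remaining effectors 4 of 7 fell. Ifi27, a small protein of mitochondria, had 41.7 CPM in siUsf2 1, 46.3 CPM in siUsf2 2 and 84 CPM in the library labelled siUsf2 3, against 74.8, 77.6 and 77.5 CPM in siControl 1 to 3. The 5-library log2 fold change came to -0.81 (SE 0.10, adjusted p = 6.09e-07 by edgeR), while the library labelled siUsf2 3 exceeded every siControl library, and over all 6 libraries it was -0.47 (SE 0.26, adjusted p = 0.617 by edgeR). Xaf1, a partner of the apoptosis inhibitor XIAP, had 6.7, 6.76 and 4.39 CPM in siUsf2 1 to 3, against 14.3, 12.2 and 21.8 CPM in siControl 1 to 3, with no overlap and a 5-library fold change, as log2, of -1.28 (SE 0.22, adjusted p = 0.000274 by edgeR). Ifi35 had 12.4, 14.3 and 17 CPM in siUsf2 1 to 3, against 18.9, 19.8 and 20.3 CPM in siControl 1 to 3. It fell by little, at -0.57 (SE 0.15, adjusted p = 0.0105 by edgeR), and the call ended without siUsf2 1 (adjusted p = 0.208). Ifi44 had 1.14, 2.28 and 3.22 CPM in siUsf2 1 to 3, against 9.8, 7.18 and 19.2 CPM in siControl 1 to 3. The siControl values spread widely, siControl 3 being the highest, and the log2 value of -2.85 (SE 0.59, adjusted p = 0.0311 by edgeR) lost its call without siUsf2 2 (log2 fold change -3.43, adjusted p = 0.0701). Sp100, a scaffold of nuclear bodies, was at 1.67 to 2.40 CPM in siUsf2 and 2.97 to 5.42 CPM in siControl and did not pass, at -0.92 (SE 0.34, adjusted p = 0.0795 by edgeR). Ifi27l2a, at 0.879 to 1.39 CPM in siUsf2 and 1.07 to 2.30 CPM in siControl, did not pass either, at -0.27 (SE 0.46, adjusted p = 0.778 by edgeR), and its transcript matches Ifi27l2b at 90.7% identity. Epsti1 had 0 counts in every library. In the fit of all 6 the log2 fold changes were -1.44 for Xaf1, -0.47 for Ifi35, -2.57 for Ifi44, -0.92 for Sp100 and -0.38 for Ifi27l2a, with adjusted p of 0.195 to 0.822 by edgeR.

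**Figure D5:**
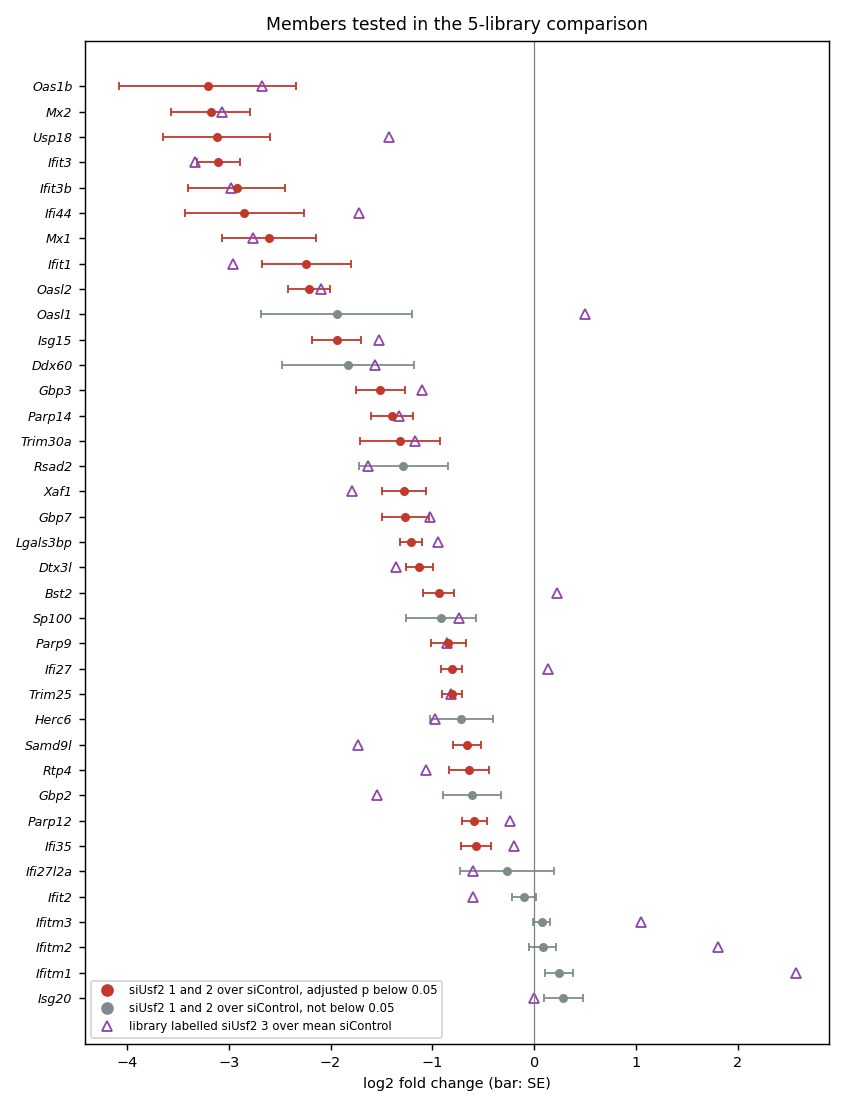
Log2 fold change of the 37 members tested in the 5-library comparison, siUsf2 1 and 2 over siControl 1 to 3, with SE bars (filled circles, red where the adjusted p is below 0.05). Open triangles give the log2 ratio of the library labelled siUsf2 3 to the siControl mean; they stand near the circles for Ifit3, Mx2, Oasl2, Parp14 and Trim25, and right of 0 for the Ifitm genes, Oasl1, Bst2 and Ifi27.

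Levels of the members also differed between libraries of 1 group. Among the siControl libraries, siControl 3 was the highest for 23 of the 36 members tested in all 6 libraries, against 35.0% of all genes. Ifi44 at 19.2 CPM and Mx2 at 11.8 CPM in siControl 3 are examples. Between siUsf2 1 and 2, siUsf2 2 was the higher for 25 of the 36, against 47.2% of all genes, for example in Ifit1 and Ifit3b. These shares carry no test, since the members share their libraries.

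Upstream of the effectors, subunits of the transcription complex fell, and the receptor genes did not pass the test. Of a list of 32 interferon pathway genes, 9 fell, 1 rose, 18 did not pass and 4 were too low to test in the 5-library comparison, with a median log2 fold change of -0.14, and no gene passed over all 6 libraries. Of the ligands, Ifnb1 had 0 counts in siUsf2, against 1, 0 and 2 counts in siControl 1 to 3, and Ifna4 had none in any library. Ifng had 4, 2 and 0 counts in siUsf2 1 to 3, against 4, 1 and 1 in siControl 1 to 3. The receptor genes Ifnar1, Ifnar2, Ifngr1 and Ifngr2 did not pass, with log2 fold changes from -0.17 to 0.20. The receptor kinase Jak2 was the gene that rose, at 0.35 (SE 0.10, adjusted p = 0.0256 by edgeR), with 95, 105 and 82.6 CPM in siUsf2 1 to 3, against 67.8, 75.8 and 88.8 CPM in siControl 1 to 3. The library labelled siUsf2 3 stood within the siControl values, and over all 6 libraries Jak2 was at 0.25 (SE 0.15, adjusted p = 0.654 by edgeR).

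Stat2 and Irf9, subunits of the factor that binds the response element, both fell. Stat2 had 32.4, 30.7 and 39 CPM in siUsf2 1 to 3, against 51.9, 49.7 and 63.8 CPM in siControl 1 to 3, with a 5-library fold change, as log2, of -0.82 (SE 0.12, adjusted p = 1.07e-05 by edgeR). Irf9 had 16.5, 18.3 and 12.9 CPM in siUsf2 1 to 3, against 32.5, 33 and 47.1 CPM in siControl 1 to 3, and its value was -1.13 (SE 0.15, adjusted p = 2.06e-05 by edgeR). Irf7, which amplifies the type I interferon response, had 3.1, 2.34 and 4.1 CPM in siUsf2 1 to 3, against 10.6, 12.2 and 13.5 CPM in siControl 1 to 3 and fell at -2.16 (SE 0.23, adjusted p = 4.44e-08 by edgeR). In each of these 3 genes the siUsf2 libraries lay below every siControl library. With all 6 libraries the log2 fold changes were -0.73 for Stat2, -1.26 for Irf9 and -2.0 for Irf7, with adjusted p of 0.071 to 0.163 by edgeR. The sensors Ddx58 and Ifih1 and their relative Dhx58 fell too, at -0.78, -0.76 and -1.03, as did the nucleic acid binding proteins Adar and Zbp1. In the fit of all 6 the log2 fold changes were -0.81 for Ddx58, -0.79 for Ifih1, -0.99 for Dhx58, -0.47 for Adar and -1.0 for Zbp1, with adjusted p of 0.15 to 0.407 by edgeR. Stat3, Irf1, Irf2, Irf3, Mavs, Socs1 and Socs3 were among those that did not pass.

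The state of the muscle program moved in the same libraries. All 6 differentiation markers looked at fell in the 5-library comparison, and none passed over all 6 libraries. Myog, Mymk, Acta1, Myh3, Ckm and Tnnt3 together held 801 CPM in siUsf2 1, 886 CPM in siUsf2 2 and 1634 CPM in the library labelled siUsf2 3, against 3620 to 3846 CPM in siControl. Tnnt3, a troponin of fast muscle, went the other way in the library labelled siUsf2 3: it had 17.3 CPM in siUsf2 1, 13.5 CPM in siUsf2 2 and 92.8 CPM in the library labelled siUsf2 3, against 47.9, 42.9 and 43.3 CPM in siControl 1 to 3. Over all 6 libraries its log2 fold change was -0.20 (SE 0.78, adjusted p = 0.942 by edgeR), while the other 5 markers were lower in that library than in any siControl library. Whether that shift has a part in the level of the effector genes was not tested.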

How the data were processed

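The authors deposited whole-number read counts of each library by Ensembl gene identifier, and these were used unchanged. The submitters' processing notes name FastQC, Trimmomatic, HISAT2, featureCounts and DESeq2 and the build mm10. For tool versions, strand setting and gene annotation: not given in the sources used here. The other deposited table was left aside. Symbols and exon lengths came from GENCODE M21 (GRCm38) for 52133 of 55414 identifiers, and coordinates are from that annotation.

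Genes were tested with edgeR 4.0.16 in R 4.3.3 (filterByExpr, TMM, robust glmQLFit and glmQLFTest, two-sided, Benjamini-Hochberg adjustment over all genes tested, called below 0.05). This was run on simulated data before use. Those data gave all genes and libraries the same dispersion and changed only well-expressed genes. They therefore do not cover members with few counts or the spread of the library labelled siUsf2 3. Alternatives were RLE and upper-quartile normalization, no filter, at least 1 CPM in 3 libraries, DESeq2 1.42.0, limma-voom (limma 3.58.1) with and without quality weights, a replicate block, a threshold of 0.01, each library left out, summed paralogs, and pseudogene counts added to parent genes. Pseudogenes were paired by minimap2 2.31 (identity 90%, coverage 50% and 150 matching bases or more), 5786 with 2120 parents. Poisson intervals cover counting error only, and the fold limits for 0 counts cover that of siUsf2 alone. Replicate pairs differed by more than counting noise. Chi-square per degree of freedom was 103 for each pair with the library labelled siUsf2 3 and 4.38 to 13 for the other pairs.

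The members and lists were chosen with earlier results of these data known. Values in every library are given for up to 4 members of each role group with the smallest p in the 5-library comparison, and for members not called with a positive fold change; the rest are given by range. Some genes of the lists are counted but not reported here by name.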

Additional observations from a re-analysis of the deposited data

How the results depend on the processing

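In the 5-library comparison the count of members that fell was 19 to 27 under every setting tried, and 20 to 24 with 1 library left out. No member rose, except Ifitm1 with pseudogene counts added (1 member). Over all genes the counts of lower and higher genes were 540 and 398 at an adjusted p below 0.01, 1686 and 1368 with quality weights, and 2270 and 1719 with a replicate block. With 1 library left out the counts ranged from 519 to 1964 lower and from 349 to 1596 higher, the highest without siControl 3. The replicate block also takes siControl 3 out of the group difference, as it is the only library of its number here. Ifitm2, which was not called, changed sign to -0.0628 with the replicate block and ranged from -0.0871 to 0.235 with 1 library left out. Ifi27l2a, also not called, ranged from -0.481 to 0.0772.

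Over all 6 libraries, where edgeR called 0 members, the count of lower members was 9 without the filter, 19 with DESeq2, 3 with limma-voom, 22 with quality weights and 11 with pseudogene counts added. Genes called lower and higher were 104 and 12 without the filter, 410 and 296 with DESeq2, 85 and 19 with limma-voom, 657 and 589 with quality weights, and 156 and 47 with pseudogene counts added, against 7 and 0 in the edgeR test. The lower count was 4 with RLE and with 1 CPM in 3 libraries, and 0 with upper-quartile normalization, at a threshold of 0.01, with the replicate block and with any of siUsf2 1, siUsf2 2 and the siControl libraries left out (0 to 0). The cause of these differences was not tested. Deviations from the group mean correlated between same-numbered libraries at r = -0.0739, -0.00488 and -0.0727 for numbers 1 to 3 across genes. These values cannot decide whether the replicate numbers pair the libraries. The library labelled siUsf2 3 dominates the deviations in its group, so siUsf2 1 and 2 gave near-equal r with siControl 3 (0.074 and 0.0673). The block left 0 members called over 6 libraries and 27 over 5. Over 5, Oasl1, Rsad2 and Ddx60 were gained and Rtp4 lost. In that comparison siControl 3 is the only library of its number, so with the block it adds nothing to the group difference. The same gains and loss were seen with siControl 3 left out, a fit that also lost Ifit1 and Trim30a. The 5-library calls with the block therefore cannot be read as an effect of pairing. The number of members whose groups did not overlap was 29 to 32 with 1 library left out. Leaving out a library can only keep or raise this number, so the range is no check of it. The share over all genes is not given for these settings. Depth limits the library labelled siUsf2 3 most, where members under 0.879 CPM cannot be told from 0.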
